A study of Mus musculus with 6 samples.

Results

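The miR-17-92 cluster and its paralogue miR-106b-25 were followed through the 3 zones of the mouse growth plate, through the mature microRNAs (miRNAs) cut from their transcripts. Members were chosen by name, as the main arms that the array design lists for these clusters: mmu-miR-17, mmu-miR-18a, mmu-miR-19a, mmu-miR-19b, mmu-miR-20a and mmu-miR-92a of miR-17-92, mmu-miR-106b, mmu-miR-93 and mmu-miR-25 of miR-106b-25, and mmu-miR-20b of the X-linked miR-106a-363 cluster. These 10 were among 690 mouse miRNAs on the array, and 9 of them were among the 226 bright enough to be tested. Cartilage of the proliferative, prehypertrophic and hypertrophic zones had been dissected from the femoral growth plate of C57BL/6 mice aged 12 days, with no genetic change or treatment stated for any zone. Each zone had 2 one-colour arrays, and each array received 100 ng of total RNA from a pool of 5 growth plates. No label ties an animal to a pool, so p-values measure only the spread between these 6 pooled samples.

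miR-17-92 is a polycistron, in which one primary transcript carries several hairpins that are cut into separate miRNAs. Its transcription is known to be driven by MYC and E2F factors, and its miRNAs are known for promoting cell proliferation and survival by repressing targets such as the cell death factor Bim. miR-106b-25 lies in an intron of Mcm7, a subunit of the helicase that opens DNA for replication. Loss of miR-17-92 in mice and humans is known to impair skeletal growth. The comparison across zones therefore places these miRNAs beside the step at which chondrocytes stop dividing and enlarge.

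A miRNA recognises its targets mainly through its seed, bases 2 to 8, and the members fall into 4 seed groups that cut across the clusters. Their mature sequences follow, to show which members share a seed, with the seed in capitals.
mmu-miR-17: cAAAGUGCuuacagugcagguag
mmu-miR-20a: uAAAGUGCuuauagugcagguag
mmu-miR-20b: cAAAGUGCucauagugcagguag
mmu-miR-106b: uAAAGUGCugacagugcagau
mmu-miR-93: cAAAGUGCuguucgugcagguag
mmu-miR-18a: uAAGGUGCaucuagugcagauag
mmu-miR-19a: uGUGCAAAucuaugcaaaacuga
mmu-miR-19b: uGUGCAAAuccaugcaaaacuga
mmu-miR-92a: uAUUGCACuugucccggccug
mmu-miR-25: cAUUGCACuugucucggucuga

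The sequences are those of RefSeq (GRCm38.p6), in which all 10 members were matched. The first 5 share the seed AAAGUGC although they come from 3 clusters, and mmu-miR-92a shares AUUGCAC with mmu-miR-25 of the other cluster. In that build the 6 hairpins of miR-17-92 span 836 bases of the plus strand, chr14:115043671-115044506, overlapping the host gene Mir17hg. The 3 hairpins of miR-106b-25 span 498 bases of the minus strand, chr5:138165321-138165818, inside Mcm7. The X-linked miR-106a-363 cluster spans 875 bases of the minus strand, chrX:52741693-52742567. mmu-miR-19b and mmu-miR-92a are each encoded at 2 loci, in miR-17-92 and in the X-linked cluster, so their signals cannot be assigned to either. Outside the seed mmu-miR-19a and mmu-miR-19b differ at 1 base, and mmu-miR-17, mmu-miR-20a and mmu-miR-20b differ from each other at 2 bases per pair. How far probes separate such close sequences was not tested.

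By the scanner software's flag, the share of spots well above background was 24.2% to 27.9% over the arrays, and no spot was saturated. All arrays shared 1 slide and scan date. Row 1 held the first proliferative array and both hypertrophic arrays, and row 2 the second proliferative array and both prehypertrophic arrays. The title numbers 13 to 15 and 16 to 18 each hold 1 array per zone; no label calls either run a batch. Of 5 cartilage miRNAs, 4 were above background (miR-140, miR-140*, miR-455 and miR-675-3p), with summed scaled signals of 6457 to 10364 on proliferative, 6794 to 6890 on prehypertrophic and 3888 to 4884 on hypertrophic arrays. Of 8 blood and marrow miRNAs 3 were above background on some array, with sums of 27.0 to 42.8, 45.2 to 47.8 and 266 to 290 in the same order of zones; miR-451 gave 226 and 254 of the hypertrophic sums. Of 2 endothelial miRNAs only miR-126-3p was, on both hypertrophic arrays alone, with sums of 0 on proliferative and prehypertrophic arrays and 34.7 to 47.2 on hypertrophic arrays. Of 5 skeletal muscle miRNAs only miR-208b was above background, with list sums of 157 to 165, 121 to 163 and 118 to 120. Values under 0 counted as 0 in these sums. The part that blood or vessel RNA plays in the differences of the cluster members against the hypertrophic zone was not tested. In such bulk samples, fewer cells of a type and less RNA per cell cannot be told apart.

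No member of the clusters passed the threshold of 0.05 on the adjusted p in any comparison of zones. In the hypertrophic against the proliferative zone 0 of 9 were called by limma, where 14.6% of all 226 tested miRNAs were, and 0 of 9 had an unadjusted p under 0.05, against 26.1% of all. In the prehypertrophic against the proliferative zone 0 of 9 were called, against 2.21% of all miRNAs, and 1 of 9 (11.1%), mmu-miR-20b, had an unadjusted p under 0.05, a share close to the 12.8% of all. In the hypertrophic against the prehypertrophic zone the count was 0 of 9, against 1.33% of all. For the prehypertrophic zone against the mean of the outer zones it was 0 of 9, against 1.77%, and for the F test over the 3 zones 0 of 9, against 7.96%. In the comparisons other than the second, no member had an unadjusted p under 0.05. In simulated data of the hypertrophic against the proliferative comparison, changes of 1 log2 unit were recovered in 59.7% of cases and changes of 2 log2 units in 99%, so changes near 1 log2 unit could often have been missed. The intervals below show what sizes the data leave possible.

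mmu-miR-17, after which the cluster is named, could not be followed: its 2 probes were not well above background on any of the 6 arrays. Its brighter probe had scaled signals of 3.81 and 3.36 on proliferative, 5.66 and 3.85 on prehypertrophic and 7.51 and 5.44 on hypertrophic arrays, all under the floor of 12.7 scaled units that was set for dim signals. None of the 10 spots of this probe carried an outlier flag on any array. mmu-miR-17*, from the same hairpin, was above background on all 6 arrays, and how well the mmu-miR-17 probes of this design detect their target was not tested.

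The other 4 members with the seed AAAGUGC were measured on all 6 arrays. The level of mmu-miR-20a, on the log2 scale of scaled signal used for all levels below, was 7.18 and 6.61 in the proliferative, 7.45 and 7.39 in the prehypertrophic and 7.03 and 7.28 in the hypertrophic zone. Both prehypertrophic arrays lay above all the others, and the 2 proliferative arrays lay far apart. The prehypertrophic zone differed from the proliferative zone by 0.53 (95% interval -0.088 to 1.15, limma adjusted p = 0.512) and the hypertrophic zone by 0.26 (-0.36 to 0.88, limma adjusted p = 0.652).

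mmu-miR-20b, the X-linked member, had the largest difference of the 9. Its levels were 5.35 and 4.83 in the proliferative, 5.68 and 5.85 in the prehypertrophic and 5.39 and 5.67 in the hypertrophic zone. Both proliferative arrays lay below the other 4. The prehypertrophic level was 1.60-fold the proliferative one, a log2 difference of 0.68 (95% interval 0.059 to 1.29, limma adjusted p = 0.314). The hypertrophic minus proliferative difference was 0.43 (-0.18 to 1.05, limma adjusted p = 0.406).

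mmu-miR-106b, with the same seed but from miR-106b-25, had levels of 5.38 and 4.79 in the proliferative, 5.03 and 5.08 in the prehypertrophic and 4.74 and 5.29 in the hypertrophic zone. The 3 zones overlapped, and the spread within the outer zones was larger than any difference between zone means. The hypertrophic minus proliferative difference was -0.071 (95% interval -0.74 to 0.60) and the prehypertrophic minus proliferative difference -0.031 (-0.70 to 0.64). On the first prehypertrophic array 1 of its 10 spots was flagged as an outlier, at an unscaled signal of 219.7 against 27.4 to 44.7 for the other 9; with flagged spots kept, the prehypertrophic minus proliferative difference was 0.27.

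mmu-miR-93, the neighbour of mmu-miR-106b in Mcm7, had levels of 5.30 and 4.49 in the proliferative, 4.72 and 4.74 in the prehypertrophic and 4.19 and 4.59 in the hypertrophic zone. Both hypertrophic arrays lay below both prehypertrophic arrays, and the first proliferative array lay above all the others. The hypertrophic minus proliferative difference was -0.51 (95% interval -1.20 to 0.19, limma adjusted p = 0.389). Leaving out the first proliferative array gave -0.10 and leaving out the other one -0.91. With the slide row as a block the difference was also -0.91 (limma adjusted p = 0.069). Row 1 held the first proliferative array and both hypertrophic arrays, so the blocked value rests on a lone proliferative array. The hypertrophic minus prehypertrophic difference was -0.34 (-1.04 to 0.35, limma adjusted p = 0.509).

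mmu-miR-18a, whose seed differs from AAAGUGC by 1 base, was close to the detection limit. It was well above background on 0 of 2 proliferative, 2 of 2 prehypertrophic and 1 of 2 hypertrophic arrays, with levels of 3.70 and 3.66, 4.06 and 3.77, and 3.66 and 3.78 against a floor of 3.66. The prehypertrophic level was at least 1.01-fold the proliferative one (limma adjusted p = 0.741). This bound sets the prehypertrophic mean against, per proliferative array, the higher of the probe's own signal and the lowest signal well above background. For the hypertrophic zone the bound came to under 1, so no fold is given.

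The seed GUGCAAA is that of the miR-19 miRNAs, known in mouse lymphoma models as the main oncogenic component of miR-17-92. mmu-miR-19b had levels of 7.76 and 7.04 in the proliferative, 7.89 and 7.88 in the prehypertrophic and 7.39 and 7.77 in the hypertrophic zone. The second proliferative array was the lowest of the 6, and both prehypertrophic arrays were above all the others. The prehypertrophic minus proliferative difference was 0.48 (95% interval -0.19 to 1.16, limma adjusted p = 0.632) and the hypertrophic minus proliferative difference 0.18 (-0.49 to 0.85, limma adjusted p = 0.795).

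mmu-miR-19a was dimmer, with levels of 3.72 and 3.66 in the proliferative, 4.03 and 4.23 in the prehypertrophic and 4.01 and 4.49 in the hypertrophic zone. Both proliferative arrays lay below the other 4, and the second of them lay at the floor, so the size of the difference depends on it. The hypertrophic minus proliferative difference was 0.56 (95% interval -0.040 to 1.15), with a limma adjusted p of 0.227 that was the smallest of any member in any comparison. With the floor set to 0.5 of its value the difference was 0.88, and over all settings it ran from -0.089 to 2.15, with no adjusted p under 0.069.

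The seed AUUGCAC pairs mmu-miR-92a, the last miRNA of miR-17-92 and known in mice for acting in endothelial cells, with mmu-miR-25 of miR-106b-25. mmu-miR-92a had levels of 9.24 and 9.12 in the proliferative, 8.94 and 9.28 in the prehypertrophic and 9.09 and 9.03 in the hypertrophic zone. Its whole range over the 6 arrays fell within the spread of the 2 prehypertrophic arrays. The hypertrophic minus proliferative difference was -0.12 (95% interval -0.69 to 0.44, limma adjusted p = 0.845). mmu-miR-25 had levels of 6.20 and 5.60 in the proliferative, 5.56 and 5.64 in the prehypertrophic and 5.31 and 5.60 in the hypertrophic zone. The first proliferative array stood above the other 5. Its hypertrophic minus proliferative difference was -0.44 (-1.07 to 0.19, limma adjusted p = 0.406), and leaving out the second or the first proliferative array gave -0.74 or -0.14.

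**Figure D1:**
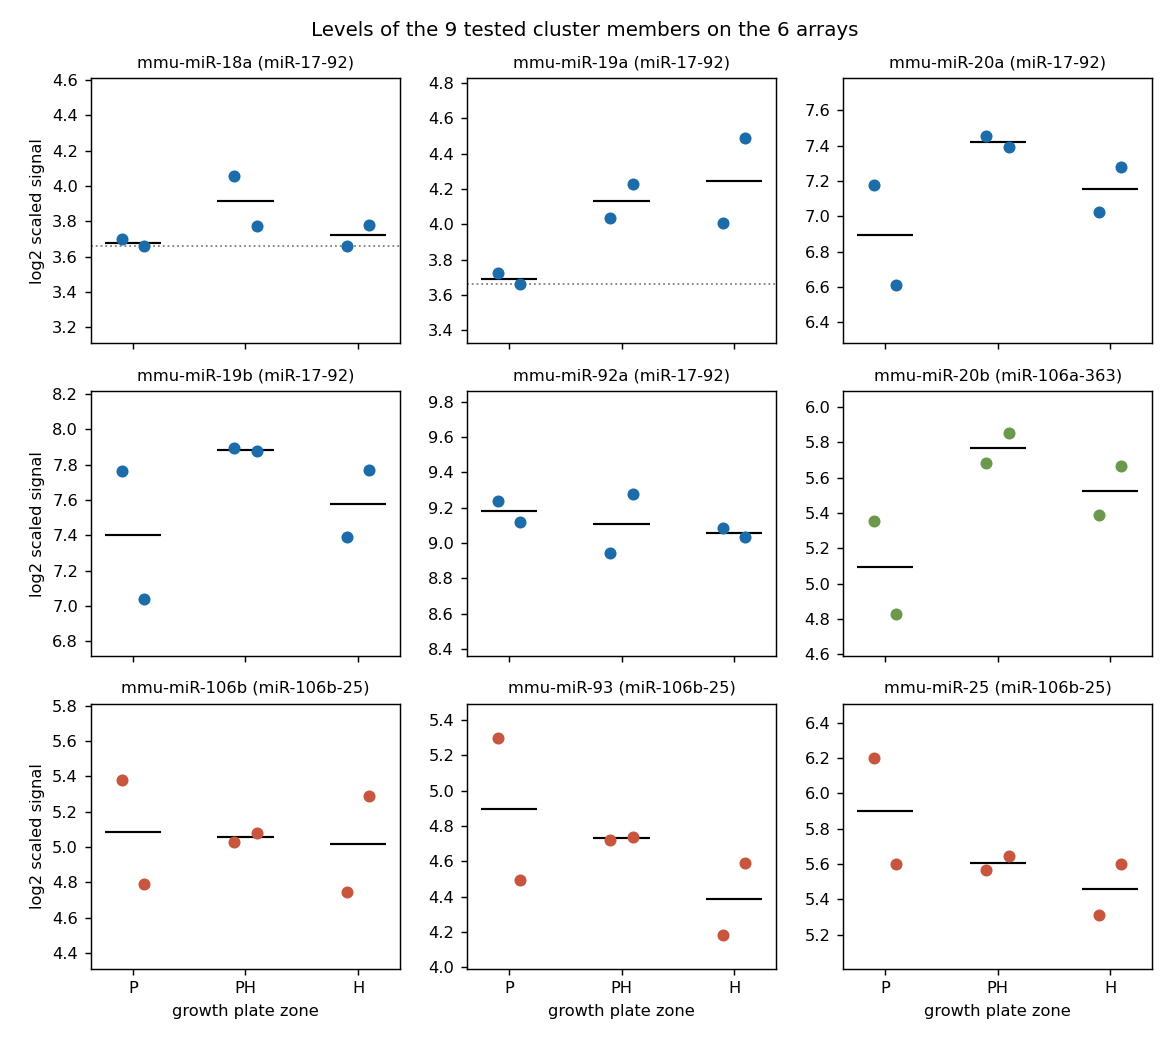
Levels (log2 scaled signal, vertical axis) of the 9 tested members on the 2 arrays of the proliferative (P), prehypertrophic (PH) and hypertrophic (H) zones. Points are arrays, bars are zone means, dotted lines mark the floor of 3.66, colours give the cluster, and each panel has its own range of levels. The 2 proliferative arrays lie far apart for mmu-miR-19b (7.76 and 7.04) and mmu-miR-93 (5.30 and 4.49), and the prehypertrophic arrays close together for both.

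mmu-miR-106b and mmu-miR-25 were the only tested members whose arrays overlapped in all 3 comparisons of zones. For mmu-miR-25 the overlap of hypertrophic and proliferative arrays was a near tie, at 5.6023 and 5.6022 on the second array of each. For the hypertrophic against the proliferative zone, 3 of 9 members had no overlap between arrays, which was so for 46.9% of all tested miRNAs: mmu-miR-19a and mmu-miR-20b with the hypertrophic arrays higher and mmu-miR-92a with them lower. For the prehypertrophic against the proliferative zone it was 5 of 9, against 36.3% of all, namely mmu-miR-18a, mmu-miR-19a, mmu-miR-19b, mmu-miR-20a and mmu-miR-20b, each with the prehypertrophic arrays higher. For the hypertrophic against the prehypertrophic zone it was 4 of 9, against 66.8% of all, with mmu-miR-19b, mmu-miR-20a, mmu-miR-20b and mmu-miR-93 lower on the hypertrophic arrays. The first and the last share lie below the share over all miRNAs. The comparisons share arrays, so their counts are not independent of each other. mmu-miR-18a was tested only through the prehypertrophic zone, and mmu-miR-19a was above background on 1 of 2 proliferative arrays. For both, the second proliferative array lay under the floor, at scaled signals of 6.20 and 8.07, and was set to it. The floor thus raised their proliferative level. Their place among the members higher than in the proliferative zone was favoured by the filter, and not by the floor.

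Over the 9 tested members the median difference was 0.042 for the hypertrophic minus proliferative comparison (5 above 0, 4 below 0). It was 0.24 for prehypertrophic minus proliferative (5 above 0, 4 below 0) and -0.19 for hypertrophic minus prehypertrophic (1 above 0, 8 below 0). Over all 226 tested miRNAs the medians were -0.0017 (112 above 0, 114 below 0), -0.14 (73 and 153) and -0.039 (109 and 116). For the prehypertrophic zone minus the mean of the outer zones, 7 of 9 members were above 0, against 95 of all 226. The members' first 2 medians were not stable. The hypertrophic minus proliferative median was -0.18 without the second proliferative and -0.018 without the second hypertrophic array. With normexp background correction the 2 medians were -0.089 and -0.073, and without the 2 dim members they were -0.071 and -0.031.

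Grouped by seed, the members differed in direction against the proliferative zone. Of the 4 tested with AAAGUGC, the hypertrophic minus proliferative differences were above 0 for mmu-miR-20a and mmu-miR-20b and below 0 for mmu-miR-106b and mmu-miR-93, with a median of 0.095. The 2 miR-19 miRNAs were both above 0, with a median of 0.37, and the AUUGCAC pair both below 0, with a median of -0.28. For the prehypertrophic minus proliferative comparison the medians were 0.25 for AAAGUGC, 0.46 for GUGCAAA and -0.18 for AUUGCAC. Against the prehypertrophic zone the hypertrophic levels of all 4 AAAGUGC members, mmu-miR-18a and both AUUGCAC members were lower in value, and the GUGCAAA pair was split.

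The sizes of these seed medians depended on the processing. The GUGCAAA medians against the proliferative zone were 0.033 and 0.15 with normexp and 1.16 and 1.47 by the log2 table of the authors. The AUUGCAC medians kept their sign under the 3 other scalings, at -0.28 to -0.17 for the hypertrophic and -0.10 to -0.049 for the prehypertrophic zone. Without any scaling they were 0.20 and 0.15, while the median of all miRNAs moved up by 0.46 and 0.30. By the second-brightest probe, which was tested for mmu-miR-92a alone of this pair, they were 0.14 and 0.058. By the log2 table of the authors they were -0.29 and 0.0086. Without the second proliferative array both AAAGUGC medians were below 0 (-0.19 and -0.039), and without the second hypertrophic array that for the hypertrophic zone was -0.10. With normexp the AAAGUGC medians were -0.097 and 0.00034.

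Grouped by cluster, the 5 tested members of miR-17-92 had a median hypertrophic minus proliferative difference of 0.18, with 4 above 0 and 1 below 0. The 3 of miR-106b-25 had a median of -0.44 and were all below 0. For the prehypertrophic minus proliferative comparison the medians were 0.44 (4 above 0, 1 below 0) and -0.17 (3 below 0). Those above 0 include the dim mmu-miR-18a and mmu-miR-19a, whose direction was favoured by the filter. The miR-17-92 medians were 0.0026 and 0.011 with normexp, and 0.26 and 0.22 by the mean of all probes. The hypertrophic one was -0.022 without the second proliferative array and -0.012 without the second hypertrophic array. The miR-106b-25 medians kept their sign under the 3 other scalings, at -0.44 to -0.33 for the hypertrophic and -0.046 to -0.030 for the prehypertrophic zone. Without any scaling, which moved all miRNAs up as given above, they were 0.037 and 0.17. Leaving out 1 array gave -0.74 to -0.10 for the hypertrophic and -0.57 to 0.24 for the prehypertrophic zone, and by the log2 table of the authors the prehypertrophic median was 0.020. In both ranges the lowest value was that without the second and the highest that without the first proliferative array.

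For the hypertrophic minus prehypertrophic comparison both cluster medians were below 0, at -0.19 for miR-17-92 and -0.15 for miR-106b-25. Each of these zones lay in 1 row of the slide, so this comparison can be told apart from a difference between rows only through the 2 proliferative arrays. With the slide row as a block the medians were -0.23 and -0.75. mmu-miR-93 was then -1.15 in place of -0.34 (limma adjusted p = 0.123), and mmu-miR-19b -1.03 in place of -0.31 (limma adjusted p = 0.141).

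**Figure D2:**
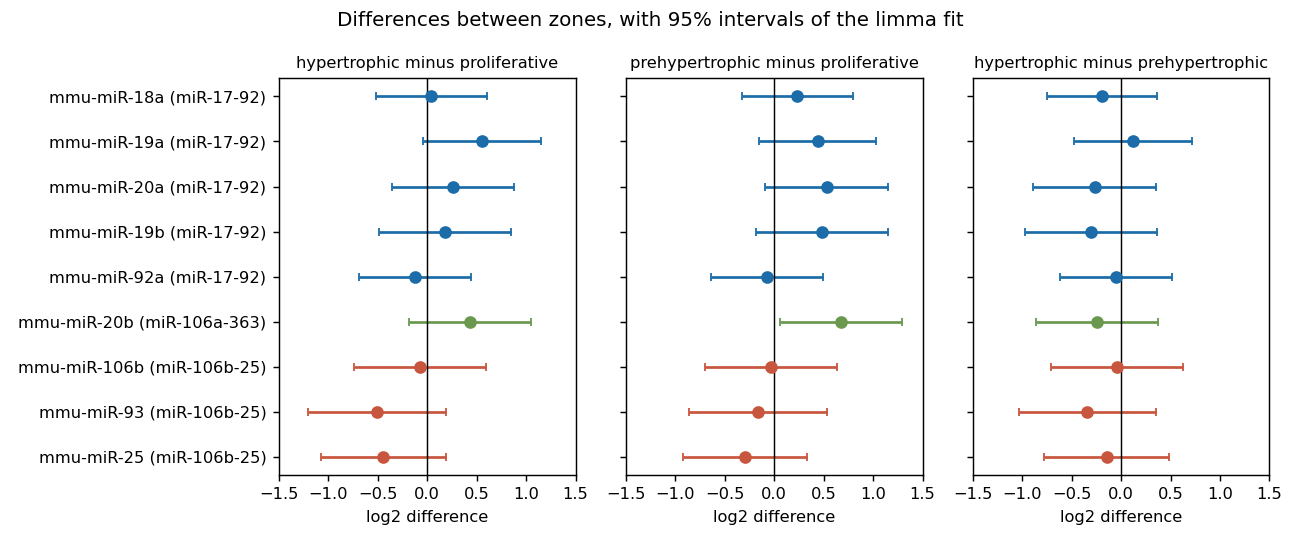
Differences of the 9 tested members between zones (log2 difference, horizontal axis; points, with 95% intervals of the limma fit as bars), for hypertrophic minus proliferative, prehypertrophic minus proliferative and hypertrophic minus prehypertrophic, coloured by cluster. Of all 27 intervals only that of mmu-miR-20b in the prehypertrophic minus proliferative panel (0.059 to 1.29) leaves out 0, and its adjusted p was 0.314.

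A comparison of the clusters within each array does not depend on the constant by which that array is scaled. It was set up after the members' values had been seen, so it is a description and carries no test; with 2 arrays against 2 an exact permutation test could not give a two-sided p below 0.333. Each member was centred on its own mean over the 6 arrays, and the mean of mmu-miR-106b, mmu-miR-93 and mmu-miR-25 was subtracted from that of mmu-miR-19b, mmu-miR-20a and mmu-miR-92a, the miR-17-92 members above background on all arrays. This difference was -0.41 and -0.21 on proliferative, 0.15 and 0.19 on prehypertrophic and 0.25 and 0.029 on hypertrophic arrays. Both proliferative arrays thus lay below the other 4. The hypertrophic zone exceeded the proliferative zone by 0.45 and the prehypertrophic zone exceeded it by 0.48, beside a spread between arrays of a zone of 0.12 (pooled SD).

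The same arrays were also split by run of title numbers and by slide row, so the values are no independent check. Row 1 holds only the hypertrophic and row 2 only the prehypertrophic comparison, each without 1 proliferative array. For the hypertrophic minus proliferative comparison the shift was 0.43 in the first run, 0.46 in the second and 0.54 in row 1. For the prehypertrophic minus proliferative comparison it was 0.56, 0.40 and, in row 2, 0.38. Leaving out any 1 array gave 0.34 to 0.56 for the hypertrophic and 0.38 to 0.58 for the prehypertrophic zone. As a ratio it bears on the levels of these members relative to each other and not on which of them differed. mmu-miR-19b and mmu-miR-92a are also encoded in the X-linked cluster, so the shift cannot be assigned to miR-17-92 alone.

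Pairs of single members were uneven, and those counted here include mmu-miR-20b, which is not part of the shift above. Of the 12 pairs that set mmu-miR-19b, mmu-miR-20a, mmu-miR-92a or mmu-miR-20b over mmu-miR-106b, mmu-miR-93 or mmu-miR-25, 9 had a higher ratio on every hypertrophic than on every proliferative array, and 9 on every prehypertrophic than on every proliferative array. Over all ordered pairs of the 186 miRNAs above background on all arrays, this was so for 28% in the hypertrophic and 19.6% in the prehypertrophic comparison. The pairs share miRNAs and arrays and were chosen after the values were seen, so the counts are not independent evidence. The 3 pairs outside the count in both comparisons were those with mmu-miR-92a. All pairs with mmu-miR-20b were inside it. Among members with the same seed, mmu-miR-20a over mmu-miR-93 differed by 0.77 between the hypertrophic and proliferative zones and mmu-miR-20b over mmu-miR-93 by 0.94. mmu-miR-92a over its seed partner mmu-miR-25 differed by 0.32, with overlapping arrays. With flagged spots kept, 6 pairs were left in the prehypertrophic comparison, and with the summed signal per miRNA 7 in the hypertrophic one.

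**Figure D3:**
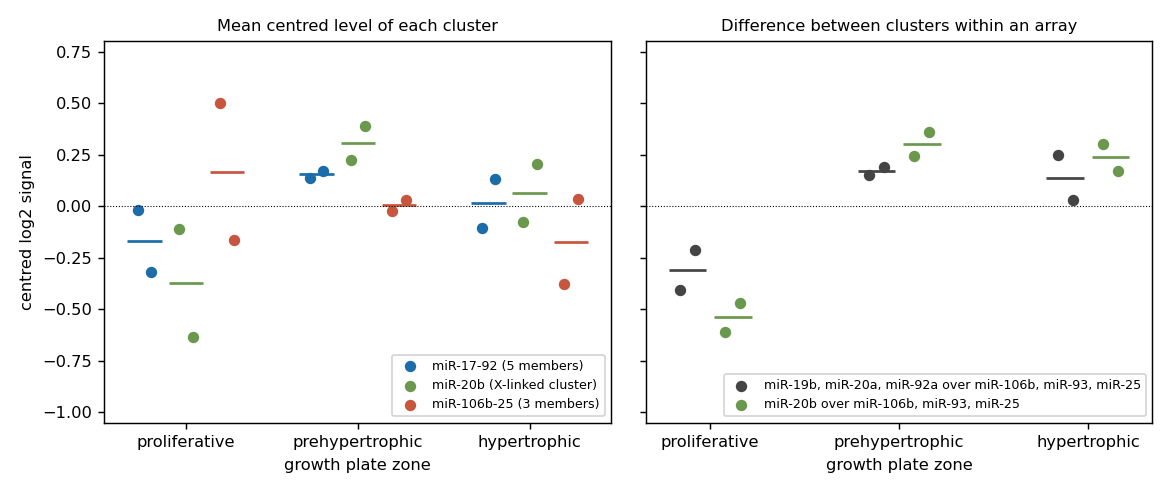
Clusters on the 6 arrays by growth plate zone (vertical axes: centred log2 signal). Left: mean of the centred members of miR-17-92 (5 members), mmu-miR-20b alone, and mean of miR-106b-25 (3 members); right: difference within each array of mmu-miR-19b, mmu-miR-20a and mmu-miR-92a, or of mmu-miR-20b, over mmu-miR-106b, mmu-miR-93 and mmu-miR-25. Points are arrays and bars zone means; on the right the proliferative arrays sit at -0.41 and -0.21, or -0.61 and -0.47 for mmu-miR-20b, and the other 4 arrays all lie above 0.

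mmu-miR-20b is encoded on the X chromosome, apart from both clusters, and its profile lay close to that of miR-17-92. Its root mean square difference from the mean centred profile was 0.17 for miR-17-92 and 0.39 for miR-106b-25, over the 6 arrays. The miR-17-92 mean includes mmu-miR-19b and mmu-miR-92a, also encoded in the X-linked cluster, and mmu-miR-20a, which differs from mmu-miR-20b at 2 bases. What shared loci or probes that bind both sequences add to this likeness was not tested. mmu-miR-18a, mmu-miR-19a, mmu-miR-19b and mmu-miR-20a were also closer to miR-17-92, each being part of that mean. mmu-miR-92a was closer to miR-106b-25 (0.24) than to its own cluster (0.27), a small gap. mmu-miR-106b, mmu-miR-93 and mmu-miR-25 were closer to miR-106b-25, whose mean they make up. For mmu-miR-106b the gap was small, at 0.18 against 0.19 for miR-17-92. Among the 215 other tested miRNAs, those with profiles most like miR-17-92 were mmu-miR-669f, mmu-miR-23a and mmu-miR-350, at 0.10 to 0.14 where the median over all was 0.39. Those most like miR-106b-25 were mmu-let-7g, mmu-miR-26a and mmu-let-7i, at 0.12 to 0.13 where the median was 0.43.

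Each member had 2 probes of 10 spots each, and 13 of these 20 probes were bright enough to test. Of the 20, 9 were above background on all arrays and 7 on none. For the 7 members seen on all arrays, the coefficient of variation over spots of the brighter probe was 2.36% to 18.3% per array, with a median of 7.98%. No probe of a member was called in any zone comparison when limma was fitted per probe. For 4 members both probes were tested. The dimmer probes gave prehypertrophic minus proliferative differences of 0.62 for mmu-miR-19b, 0.64 for mmu-miR-20a and 0.36 for mmu-miR-20b, against 0.48, 0.53 and 0.68 by the brighter ones. For mmu-miR-92a the probes differed in sign, at 0.058 by the dimmer and -0.071 by the brighter probe.

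**Figure D4:**
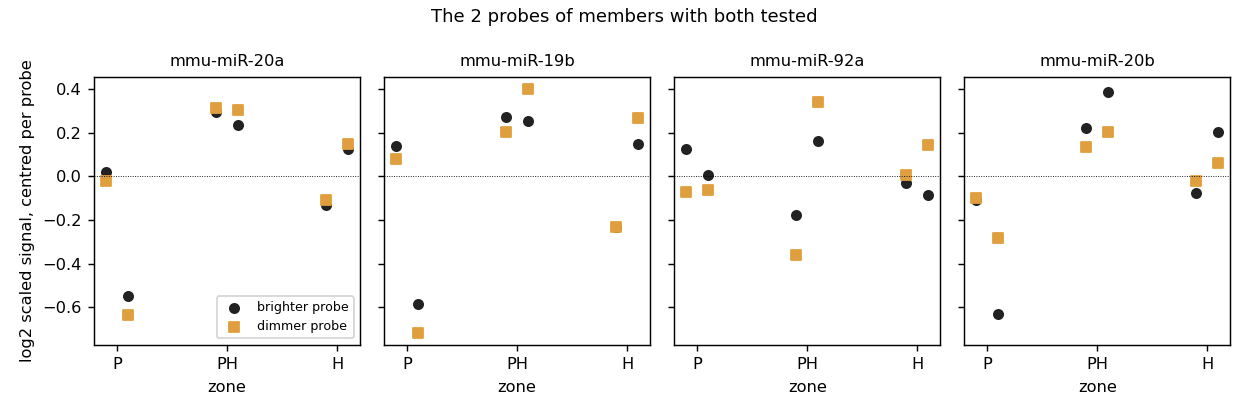
Both probes of the 4 members for which each was tested: log2 scaled signal centred on the probe's own mean (vertical axis) on the arrays of the proliferative (P), prehypertrophic (PH) and hypertrophic (H) zones, with circles for the brighter and squares for the dimmer probe. The probes move alike for mmu-miR-20a, with prehypertrophic minus proliferative differences of 0.53 and 0.64, and less so for mmu-miR-92a, at -0.071 and 0.058.

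Of 18 other arms and paralogues of these clusters, 13 were on the array and 2 were tested. mmu-miR-17*, cut from the same hairpin as mmu-miR-17, was above background on all 6 arrays, at 4.12 and 5.50 in the proliferative, 4.36 and 5.14 in the prehypertrophic and 5.15 and 4.33 in the hypertrophic zone. Within each zone its arrays differed by 0.78 to 1.38 log2 units, more than its zone means did, and the array of the second run of title numbers was the higher one each time. Its hypertrophic minus proliferative difference was -0.066 (95% interval -1.09 to 0.96, limma adjusted p = 0.945). mmu-miR-92a* had levels of 6.36 and 6.72 in the proliferative, 5.80 and 6.01 in the prehypertrophic and 6.64 and 6.22 in the hypertrophic zone. Both prehypertrophic arrays lay below the other 4, unlike those of mmu-miR-92a from the opposite arm. Its prehypertrophic minus proliferative difference was -0.63 (-1.24 to -0.023), which did not pass the threshold (limma adjusted p = 0.338). Of the other 11, mmu-miR-92b was above background on 1 hypertrophic array and the rest on none.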

How the data were processed

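MicroRNA levels were measured on 6 one-colour Agilent arrays (miRBase version 14), 2 per zone, grouped by the zone in the labels. Spot intensity came from the deposited scanner files, which the authors made with Feature Extraction 10.7.3.1, per the file headers. The log2 table that the authors deposited equalled log2 of the scanner's total signal per miRNA, set to 1 where lower, minus a constant per array, within 1.28e-06. So its scale, centring and direction are known, with column medians of -4.40 and -4.25 (proliferative), -4.46 and -4.45 (prehypertrophic) and -4.69 and -4.94 (hypertrophic). The labels name GeneSpring XII as the analysis software.

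Here processed signals of spots without outlier flags were averaged per probe (1928 probes, 13800 spots). Arrays were scaled to the 75th percentile of the 342 probes (17.7%) above background on all arrays, because few probes were detected on every array. A floor of 12.66 scaled units preceded log2. A probe counted as above background where over 0.5 of its unflagged spots carried that flag, and each miRNA took its brightest probe. The 226 miRNAs above background throughout some zone were tested with limma 3.58.1 in R 4.3.3 on all 6 arrays (3 residual and 7.19 prior degrees of freedom) and Benjamini-Hochberg adjustment over all 226. In simulated data of that size 3.49% of calls were false. Named miRNAs are the members, the tested other arms and paralogues, and the 3 nearest profiles per cluster. The members, lists and tests were chosen with earlier results of these data known. Alternatives covered scaling, background correction (normexp, offset 50, on the median signal, as the files used here hold no mean signal), probe choice, filter, floor, outlier spots, slide row, run and left-out arrays. The number of arrays limits the precision.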

Additional observations from a re-analysis of the deposited data

How the results depend on the processing

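None of 24 alternatives called a member: all 118 counts over comparisons and alternatives were 0, by limma. Of 621 differences of single members over alternatives, 54 changed sign, none of them past the threshold, and the cause of these changes was not tested.

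Relative to the scaling used, the median of all miRNAs moved without scaling by 0.46 (hypertrophic minus proliferative), 0.30 (prehypertrophic minus proliferative) and 0.14 (hypertrophic minus prehypertrophic). It moved by 0.11 and 0.13 in the first 2 comparisons with median scaling, by 0.12 and -0.12 in the last 2 with the percentile of all probes, and by 0.11 in the second with quantile normalization.

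For hypertrophic minus proliferative, sign changes were as follows. Without scaling mmu-miR-92a was 0.36, mmu-miR-106b 0.41 and mmu-miR-25 0.037. With quantile normalization mmu-miR-92a was 0.052, and with median scaling mmu-miR-106b was 0.042. With normexp mmu-miR-18a was -0.14, mmu-miR-19a -0.089 and mmu-miR-92a 0.0026. mmu-miR-92a was 0.011 by the mean of its probes and 0.14 by the second-brightest probe. With the slide row as a block mmu-miR-19b was -0.18 and mmu-miR-20a -0.022, the same values as without the second proliferative array.

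For prehypertrophic minus proliferative, mmu-miR-92a and mmu-miR-106b were 0.051 and 0.091 with the percentile of all probes, and 0.064 and 0.10 with median scaling. Without scaling mmu-miR-92a, mmu-miR-106b, mmu-miR-93 and mmu-miR-25 were 0.27, 0.31, 0.17 and 0.040. mmu-miR-106b was 0.079 with quantile normalization and 0.27 with outlier spots kept. With normexp mmu-miR-18a was -0.10, mmu-miR-19a -0.073 and mmu-miR-92a 0.011. The second-brightest probe of mmu-miR-92a gave 0.058. By the authors' deposited table mmu-miR-92a, mmu-miR-106b and mmu-miR-93 were 0.13, 0.023 and 0.020. With the slide row as a block mmu-miR-106b, mmu-miR-93 and mmu-miR-25 were 0.26, 0.24 and 0.0026, the same values as without the first proliferative array.

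For hypertrophic minus prehypertrophic, mmu-miR-19a was -0.11 with quantile normalization, -0.015 with normexp and -0.092 by the authors' deposited table. mmu-miR-92a was 0.075 with quantile normalization, 0.093 without scaling, 0.017 by the mean of its probes and 0.085 by the second-brightest probe. mmu-miR-106b was 0.10 without scaling and 0.078 by the total signal.

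Leaving out 1 array in turn gave ranges that crossed 0. For hypertrophic minus proliferative these were -0.018 to 0.10 for mmu-miR-18a, -0.18 to 0.54 for mmu-miR-19b, -0.022 to 0.55 for mmu-miR-20a and -0.36 to 0.22 for mmu-miR-106b. For prehypertrophic minus proliferative they were -0.24 to 0.097 for mmu-miR-92a, -0.32 to 0.26 for mmu-miR-106b, -0.57 to 0.24 for mmu-miR-93 and -0.60 to 0.0026 for mmu-miR-25. For hypertrophic minus prehypertrophic they were -0.13 to 0.36 for mmu-miR-19a, -0.22 to 0.12 for mmu-miR-92a and -0.31 to 0.23 for mmu-miR-106b. In these fits the lone array of a zone is assumed to vary like the others.

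The sample titles share no replicate number across zones, so the labels pair no arrays. The runs of title numbers hold 1 array per zone each, and with the run as a block 0 members were called. No value could be had for mmu-miR-18a and mmu-miR-19a at 2 times the floor or when only miRNAs above background on all arrays were kept, for members whose second probe was too dim, or for the F test on 2 zones alone.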
